A study of Arabidopsis thaliana with 18 samples.

Results

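Polysomal RNA was compared with total RNA in seedlings of Arabidopsis thaliana, ecotype Columbia-0 (Col-0), 72 h after the start of imbibition. Members of the comparison were taken by sample label: the 3 arrays of polysomal RNA (RNA sedimenting with several ribosomes) and the 3 arrays of total RNA from seedlings, 6 of the 18 arrays of the series, with all 27827 rows of the value table, 1 row per gene locus. The comparison itself was chosen with earlier results of these data known. The other 12 arrays held monosomal RNA of seedlings and total, monosomal and polysomal RNA of dry seeds of the same ecotype, and they entered the fit only for its estimate of the spread unless stated. The labels describe a randomized block layout with 3 biological replicates, each a bulk of 8 plants, and the protocol text given with all arrays speaks of freshly harvested dry seeds, so the growth of the seedlings after imbibition is not given in the sources used here. Genes called with all arrays were called in the same direction without polysomal replicate 3 unless a value without it is printed beside them. RNA came from whole seedlings, so fewer cells of a type and less RNA per cell cannot be told apart. Values are log2 intensities, and changes are polysomal minus total on that scale.

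An mRNA that is being translated by several ribosomes at once sediments in the polysomal fraction, so the polysomal level of a transcript set against its total level is the usual measure of how much of it is engaged in translation. Transcripts that are not being translated, and most non-coding RNA, sediment elsewhere. During the days after germination an Arabidopsis seedling consumes stored oil and protein, builds its photosynthetic apparatus and resumes cell division. Because all arrays were scaled to a like distribution, a change concerns the portion of its fraction that a transcript makes up, and how much RNA each fraction held was not measured.

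Polysomal replicate 3 stood apart in its seed transcripts. The 9 seed storage protein rows had medians of 2.96, 2.39 and 6.49 on polysomal arrays 1 to 3, against 2.85, 3.32 and 3.24 on the total arrays. For 7 oil body rows the polysomal medians were 3.17, 2.46 and 6.15. In all, 320 rows lay at least 2-fold higher on polysomal replicate 3 than on both other polysomal arrays, and 213 of them (66.6%) were also at least 2-fold higher in dry seed total RNA than in seedling total RNA, against 19.2% of all rows. The same count was 129 rows for polysomal replicate 1, of which 20 were higher in dry seeds, and 81 for replicate 2, of which 5 were. Most results are therefore given with and without replicate 3, and the part of this array in a result was tested only in that way.

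**Figure D1:**
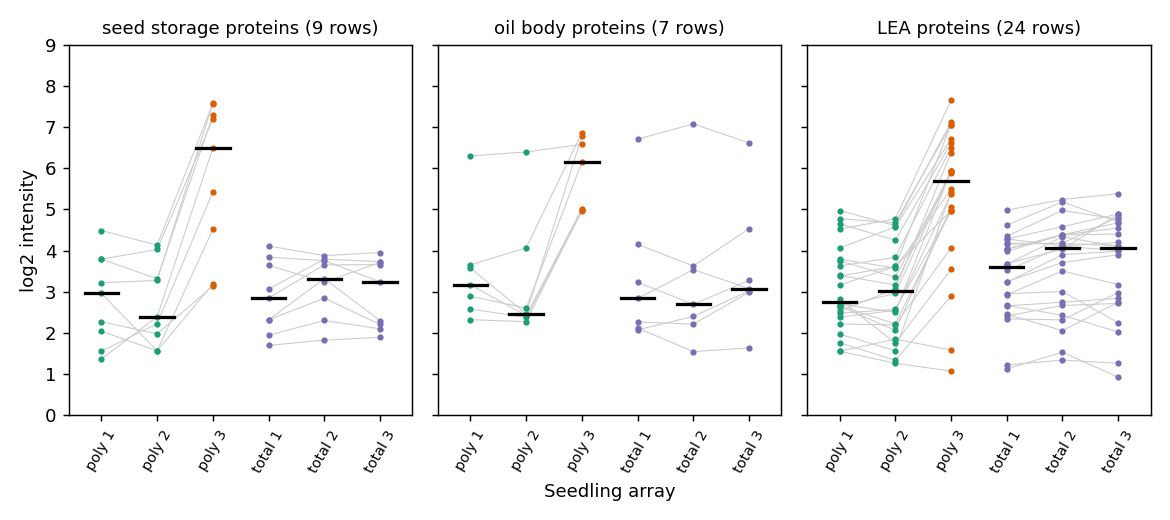
Log2 intensity of seed storage protein, oil body and late embryogenesis abundant (LEA) rows on each seedling array (poly, polysomal; total, total RNA; numbers are replicates). Points are rows, grey lines join a row within a fraction and black bars are medians; on polysomal replicate 3 (orange) the storage protein median is 6.49, against 2.96 and 2.39 on the other polysomal arrays.

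The light-harvesting gene CAB1 (AT1G29930) had 10.97, 10.86 and 11.06 on the polysomal arrays and 10.78, 10.90 and 10.69 on the total arrays, against a mean of 3.01 in dry seed total RNA, so all 6 arrays carry the label's seedling RNA by this marker. Markers of root and shoot were both measured. Among 11 root markers the endodermal gene CASP1 (AT2G36100) and the regulator SCR (AT3G54220) had group means of about 6 to 7, and among 8 shoot apex and stomatal markers the stomatal lineage receptor gene TMM (AT1G80080) did. Most other markers were low: only 2 root and 1 shoot row reached a mean of 6. The median levels of the 2 lists, 3.07 and 3.19, lay below the array medians. Of the 11 root markers 0 were called by limma, with 1 at an unadjusted p under 0.05. Of the shoot and stomatal markers the stem cell regulator WUS (AT2G17950) was lower, at levels of 1.47, 1.53 and 1.33 on the polysomal arrays and 2.72, 2.18 and 1.81 on the total arrays, below the array medians (change −0.80, SE 0.25, adjusted p = 0.0269, with −0.74 at adjusted p = 0.0818 without polysomal replicate 3). Array medians lay between 3.49 and 3.65. Across rows, which are not independent replicates, the correlation was 0.98, 0.97 and 0.97 among polysomal arrays, 0.98, 0.98 and 0.98 among total arrays, and 0.93 to 0.94 between the fractions.

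Polysomal and total RNA differed in 20.5% of rows, and the falls reached further than the rises. Tested with limma over all 27827 rows at a Benjamini-Hochberg adjusted p under 0.05, 2744 rows (9.86%) were higher and 2968 (10.7%) lower in polysomal RNA. A change of at least 2-fold was met by 729 of the higher and 1679 of the lower rows, and one of at least 4-fold by 5 and 344. The largest rise was 2.44 and the largest fall −6.48. The 3 polysomal and 3 total values did not overlap in 41.3% of rows. Without polysomal replicate 3, 2035 rows (7.31%) were higher and 2358 (8.47%) lower, and 1855 and 2212 were called the same way in both fits. Of the 889 rows called higher only with that array, 295 were at least 2-fold higher in dry seed than in seedling total RNA. The same held for 628 of the 1855 rows called higher in both fits, and for 19.2% of all rows. It was thus not particular to the rows called only with that array.

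The median change of all rows was 0.08 with and without polysomal replicate 3. Centring arrays on their medians raised it by 0.11 and turned the split of called rows from 2744 higher and 2968 lower to 4056 higher and 2421 lower, so the balance between directions depends on the scaling. List medians below are to be read against this 0.08, and shares called against 20.5% of all rows, 9.86% higher and 10.7% lower. The balance also varied with level. Of 3677 rows with a mean over all 18 arrays from 6 to 8, 20.4% were higher and 9.44% lower, whereas of 10300 rows from 2 to 4, 6.64% were higher and 13.8% lower. The 2 to 4 class also held 227 of the 344 falls of at least 4-fold. Of 668 rows from 8 to 10, 21.7% were higher and 13.8% lower. Of 32 rows at 10 and above, 2 were higher and 1 lower, and whether the scale flattens there was not tested. Shares of all rows do not allow for level. Lists of high level, such as translation factors, proteasome and ribosomal proteins (seedling medians 7.27, 7.20 and 8.37), are to be read against these classes too.

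**Figure D2:**
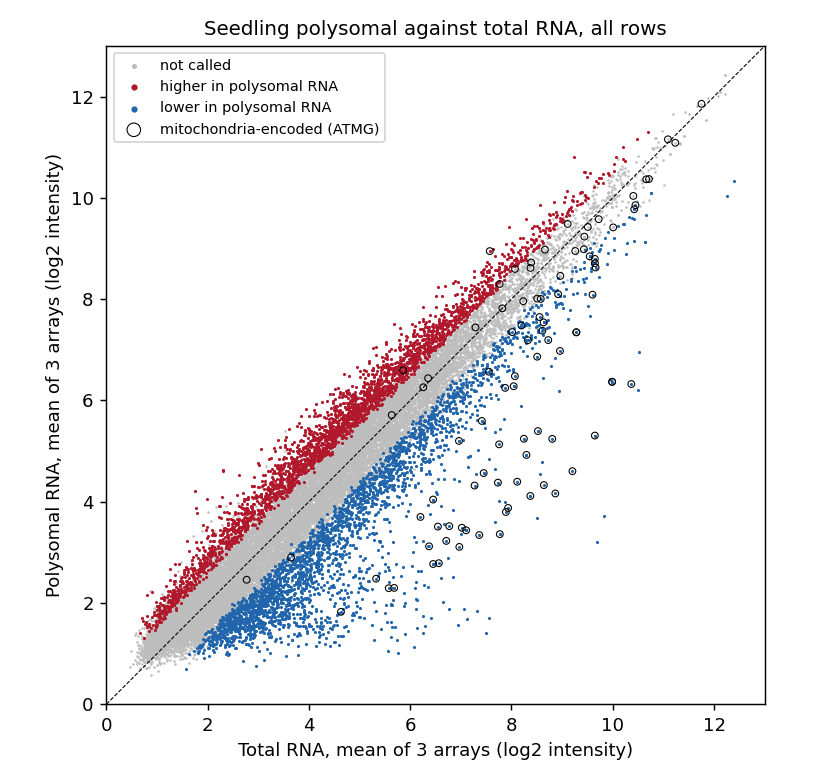
Mean log2 intensity of 3 polysomal arrays against that of 3 total RNA arrays for 27827 rows, with rows called higher in red (2744), called lower in blue (2968) and the rest in grey; the dashed line marks equal values. Falls reach much farther from the line than rises, and 92 mitochondria-encoded rows (circles) lie mostly below it.

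The 10 largest rises by the naming rule (nuclear protein-coding rows called with and without polysomal replicate 3, groups not overlapping, a group mean of at least 6) lay between 1.66 and 1.83. The largest was SBP2 (AT4G14040), for a selenium-binding protein, with 6.31, 6.55 and 6.72 on the polysomal arrays and 4.88, 4.73 and 4.48 on the total arrays (change 1.83, SE 0.22, adjusted p = 9.03e-06). Its polysomal values all lie above its total values, and without polysomal replicate 3 the change was 1.73 (adjusted p = 0.000117). The other 2 genes of that family, listed after the values were seen, rose as well. SBP1 (AT4G14030) had 8.29, 8.25 and 8.55 on the polysomal arrays and 6.89, 6.72 and 7.03 on the total arrays (change 1.48, SE 0.20, adjusted p = 2.61e-05). SBP3 (AT3G23800) had 5.57, 6.18 and 6.61 on the polysomal arrays and 4.17, 4.57 and 4.69 on the total arrays (change 1.64, SE 0.29, adjusted p = 0.00057). In neither do the groups overlap. RABA1d (AT4G18800), a small GTPase of membrane trafficking, had 6.56, 6.17 and 6.72 on the polysomal arrays and 4.54, 4.92 and 4.93 on the total arrays (change 1.69, SE 0.20, adjusted p = 8.84e-06). AT1G80360, named VAS1 in the annotation and known as an aminotransferase that acts on amino acid precursors of auxin and ethylene, had 8.11, 8.12 and 8.50 on the polysomal arrays and 6.41, 6.62 and 6.63 on the total arrays (change 1.69, SE 0.21, adjusted p = 1.32e-05). Both again show higher values on every polysomal than on any total array. The remaining 7 have no symbol in the annotation: AT2G18270, AT5G67630, AT5G64460, AT1G03030, AT4G36550, AT1G77060 and AT2G17340 rose by 1.83, 1.76, 1.73, 1.72, 1.71, 1.71 and 1.66, with adjusted p-values of 7.42e-06, 1.06e-05, 0.00146, 1.58e-05, 0.00238, 0.000656 and 0.000289. Polysomal replicate 3 gave the highest value in 8 of the 10 genes, by at most 0.38 over the next.

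Oil breakdown genes were among those higher in polysomal RNA. Of 19 rows for peroxisomal fatty acid oxidation, the glyoxylate cycle and gluconeogenesis, 10 were called higher and 0 lower, 52.6% against 20.5% of all rows, and the median change was 0.52 against 0.08. The largest was PKT3 (AT2G33150), the peroxisomal 3-ketoacyl-CoA thiolase that cleaves the shortened acyl chain in the last step of β-oxidation, with 10.65, 10.79 and 10.99 on the polysomal arrays and 9.24, 9.15 and 9.33 on the total arrays (change 1.57, SE 0.18, adjusted p = 5.04e-06). The peroxisomal citrate synthase gene CSY2 (AT3G58750) had 7.29, 7.16 and 6.94 on the polysomal arrays and 6.16, 5.99 and 6.38 on the total arrays (change 0.95, SE 0.21, adjusted p = 0.00297). AIM1 (AT4G29010), a multifunctional protein of β-oxidation, had 8.21, 8.40 and 8.06 on the polysomal arrays and 7.43, 7.08 and 7.46 on the total arrays (change 0.90, SE 0.17, adjusted p = 0.000999). In these 3 genes no polysomal value fell into the range of the total values. Malate synthase MLS (AT5G03860), of the glyoxylate cycle, rose by 0.80 (adjusted p = 0.00114), the acyl-CoA oxidase ACX4 (AT3G51840) by 0.82 (adjusted p = 0.00347) and the long-chain acyl-CoA synthetase LACS6 (AT3G05970) by 0.54 (adjusted p = 0.0434). Isocitrate lyase ICL (AT3G21720), the other enzyme particular to the glyoxylate cycle, was not called, with 11.77, 11.70 and 11.64 on the polysomal arrays and 11.46, 11.31 and 11.50 on the total arrays (change 0.28, SE 0.16, adjusted p = 0.214), nor was PCK1 (AT4G37870), phosphoenolpyruvate carboxykinase (0.21, adjusted p = 0.365). The lipase gene SDP1 (AT5G04040), whose product starts oil breakdown, was the 1 member with a change below 0 (−0.18, adjusted p = 0.54). The count was 8 higher and the median 0.61 without polysomal replicate 3. Leaving out polysomal replicate 2 or total replicate 2 gave 5 calls each, and centring arrays on their medians or 75th percentiles gave 13 and 6, all higher.

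**Figure D3:**
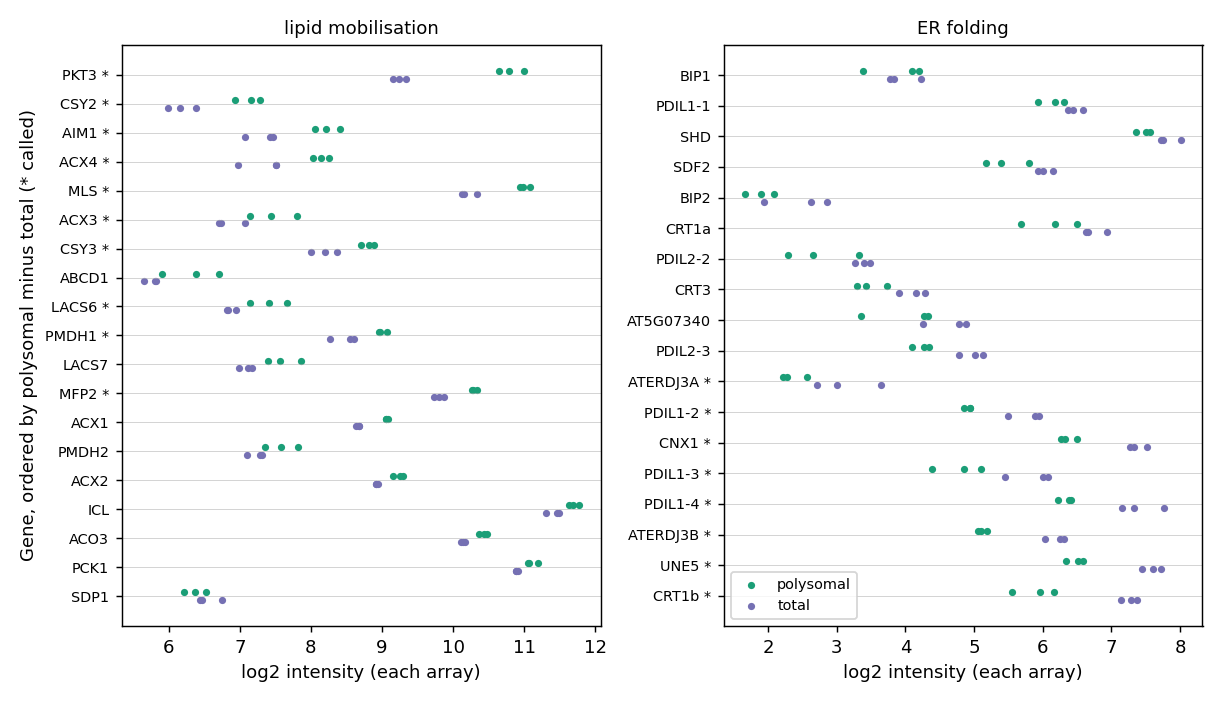
Log2 intensity on each of the 3 polysomal (green) and 3 total (violet) arrays for 19 genes of lipid mobilisation (left) and 18 genes of folding in the endoplasmic reticulum (ER, right), ordered by change, with an asterisk on called genes. In lipid mobilisation the called genes have polysomal values to the right of the total values, from 1.57 for PKT3 downward, and in ER folding they have them to the left, down to −1.38 for CRT1b.

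Sulfur metabolism and glycolysis gave further rises. Both lists were chosen after the values had been seen, so their counts describe that choice. Among 21 genes of sulfate assimilation, glutathione and methionine synthesis, 9 higher and 0 lower were called, 42.9% against 20.5% of all rows (median change 0.61 against 0.08). APR2 (AT1G62180), an adenosine phosphosulfate reductase that commits sulfate to reduction, had 7.21, 7.56 and 7.51 on the polysomal arrays and 5.80, 5.83 and 5.77 on the total arrays (change 1.62, SE 0.17, adjusted p = 1.62e-06), so its groups lie more than 1 log2 unit apart. Glutathione synthetase GSH2 (AT5G27380) had 7.51, 7.55 and 7.46 on the polysomal arrays and 5.94, 6.19 and 6.0 on the total arrays (change 1.47, SE 0.20, adjusted p = 4.44e-05), and methionine γ-lyase MGL (AT1G64660), which breaks methionine down, rose by 1.58 (adjusted p = 8.6e-06). MS2 (AT3G03780), a methionine synthase, rose by 1.29 (adjusted p = 0.00035), and MTO1 (AT3G01120), cystathionine γ-synthase, by 0.91 (adjusted p = 0.00142). GSH1 (AT4G23100), which makes the precursor that GSH2 uses, was not called, with 8.53, 8.32 and 8.18 on the polysomal arrays and 8.30, 8.24 and 8.18 on the total arrays (0.10, adjusted p = 0.704). Within these pathways 12 of 21 rows did not pass the test, and their changes lay between −0.20 and 0.73.

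Of 16 genes of cytosolic glycolysis and gluconeogenesis, also chosen after seeing values, 9 higher and 0 lower were called, 56.2% against 20.5% (median 0.70 against 0.08). The enolase gene LOS2 (AT2G36530) had 10.43, 10.43 and 10.66 on the polysomal arrays and 9.33, 9.50 and 9.53 on the total arrays (change 1.05, SE 0.18, adjusted p = 0.000372). Fructose-1,6-bisphosphatase FBP (AT1G43670), a gluconeogenic enzyme, rose by 1.15 (adjusted p = 6.6e-05) and the phosphoglycerate mutase iPGAM2 (AT3G08590) by 0.89 (adjusted p = 0.00529), while its homologue iPGAM1 (AT1G09780) had a change of 0.01 (adjusted p = 0.988) and triose phosphate isomerase TPI (AT3G55440) one of −0.23 (adjusted p = 0.32). Members of 1 pathway thus ranged from −0.23 to 1.21. Phosphoenolpyruvate carboxylase genes PPC1 (AT1G53310), PPC3 (AT3G14940) and PPC2 (AT2G42600) rose by 1.35, 1.23 and 0.95 (adjusted p = 2.57e-05, 0.00243 and 0.00333), and PPC4 (AT1G68750), which lay below the array medians, did not pass the test. Without polysomal replicate 3, 8 of 21, 8 of 16 and 3 of 4 rows in these lists were called higher, and 0 lower.

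Of 39 rows for translation factors, 11 higher and 0 lower were called, 28.2% against 20.5% of all rows (median 0.35 against 0.08), whereas of 180 rows for cytosolic ribosomal proteins 21 higher and 15 lower were. The median of the latter was 0.00, with no stable sign: it was 0.11 with arrays centred on medians, −0.06 on 75th percentiles and −0.10 after cyclic loess. The elongation factor eEF2 gene LOS1 (AT1G56070) had 10.04, 9.79 and 10.22 on the polysomal arrays and 9.11, 9.08 and 8.96 on the total arrays (change 0.96, SE 0.18, adjusted p = 0.000891). EIF3E (AT3G57290), a subunit of initiation factor eIF3, had 7.85, 7.93 and 7.73 on the polysomal arrays and 6.87, 6.88 and 7.28 on the total arrays (change 0.83, SE 0.19, adjusted p = 0.00385). Polysomal and total values do not overlap in either gene. The further factors EIF3G1 (AT3G11400) and EIF3A (AT4G11420), also of eIF3, rose by 0.73 (adjusted p = 0.0037) and by 0.72 (adjusted p = 0.0136), the scaffold eIFiso4G1 (AT5G57870) by 0.73 (adjusted p = 0.00916), AT5G19510 by 0.92 (adjusted p = 0.00265) and AT1G07920 by 0.68 (adjusted p = 0.00352). Without polysomal replicate 3, 8 factors were higher and 0 lower, and without total replicate 1, 7 and 0.

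Ribosomal protein rows ranged from −0.97 to 1.09, and 91 of 180 changes were above 0. The share called was 20%, near the 20.5% of all rows. AT3G57490 had 5.77, 5.74 and 6.0 on the polysomal arrays and 4.55, 4.73 and 4.96 on the total arrays (change 1.09, SE 0.18, adjusted p = 0.000369), and its polysomal values all exceed its total values. RS27A (AT3G61110), for a small-subunit protein, went the other way with 7.40, 7.19 and 7.45 on the polysomal arrays and 7.96, 8.23 and 8.76 on the total arrays (change −0.97, SE 0.20, adjusted p = 0.0022), as did AT2G25210 with 8.65, 8.41 and 8.81 on the polysomal arrays and 9.47, 9.53 and 9.73 on the total arrays (change −0.95, SE 0.19, adjusted p = 0.00142). In both, every polysomal value lies below every total value. RPS6 (AT4G31700), for the small-subunit protein phosphorylated by the TOR pathway kinase S6K, had 10.02, 10.09 and 10.09 on the polysomal arrays and 9.49, 9.48 and 9.85 on the total arrays, which did not pass the test (change 0.46, SE 0.17, adjusted p = 0.0592). It passed under 5 of 15 other settings, among them centring on medians (0.57, adjusted p = 0.0185). The count of higher rows depended on single arrays and on the scaling: it was 8 without polysomal replicate 3, 11 without replicate 1 or 2, 6 and 8 without total replicate 1 or 2, 17 without total replicate 3, and 29 or 9 with arrays centred on medians or 75th percentiles, beside 9 to 16 lower rows when 1 array was left out. Genes of this family have near-identical copies, so a row may hold signal of more than 1 copy.

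Photosynthesis rows encoded in the nucleus gave more rises than falls, with 51 of 69 changes above 0. Of the 69, 10 higher and 1 lower were called, where 9.86% of all rows were higher and 10.7% lower. The share called was 15.9% against 20.5% of all rows, and the median was 0.20 against 0.08. FBA1 (AT2G21330), a plastid aldolase, had 8.09, 8.33 and 8.61 on the polysomal arrays and 6.94, 7.09 and 6.81 on the total arrays (change 1.40, SE 0.23, adjusted p = 0.000244). GAPB (AT1G42970), a subunit of plastid glyceraldehyde-3-phosphate dehydrogenase, had 10.45, 10.48 and 10.58 on the polysomal arrays and 9.41, 9.47 and 9.41 on the total arrays (change 1.07, SE 0.20, adjusted p = 0.000956), and neither gene's groups overlap. GAPA-2 (AT1G12900) of the same enzyme rose by 1.01 (adjusted p = 0.0018), phosphoglycerate kinase PGK1 (AT3G12780) by 0.75 (adjusted p = 0.0176) and PSBO2 (AT3G50820), of the oxygen-evolving complex, by 1.07 (adjusted p = 0.00966). The small Rubisco subunit gene RBCS3B (AT5G38410) was lower, with 4.19, 3.63 and 3.69 on the polysomal arrays and 4.69, 5.21 and 5.20 on the total arrays (change −1.19, SE 0.28, adjusted p = 0.00527), while RBCS1A (AT1G67090) had 11.98, 11.94 and 12.01 on the polysomal arrays and 11.91, 11.97 and 11.77 on the total arrays and was not called (change 0.09, SE 0.22, adjusted p = 0.802). Copies of the small subunit genes are alike, so their rows may share signal. CAB1, given above, was not called either (change 0.17, SE 0.40, adjusted p = 0.796). Leaving out polysomal replicate 3 gave 7 higher and 1 lower, and leaving out total replicate 1 gave 7 and 3.

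Of 45 proteasome rows, 12 higher and 0 lower were called, 26.7% against 20.5% of all rows (median 0.32 against 0.08). Calls came from both parts of the complex. PAE1 (AT1G53850), a subunit of the core, had 8.36, 8.39 and 8.57 on the polysomal arrays and 7.24, 7.27 and 7.28 on the total arrays (change 1.18, SE 0.19, adjusted p = 0.000197). RPN10 (AT4G38630), a ubiquitin receptor of the regulatory particle, had 8.41, 8.41 and 8.76 on the polysomal arrays and 7.24, 7.40 and 7.56 on the total arrays (change 1.13, SE 0.17, adjusted p = 8.41e-05). The core subunit PAB1 (AT1G16470) rose by 1.09 (adjusted p = 0.00124), and RPN1A (AT2G20580), of the regulatory particle, by 1.01 (adjusted p = 0.000789). Polysomal and total values did not overlap in 51.1% of the 45 rows, against 41.3% of all rows. Leaving out polysomal replicate 3 gave 9 higher and 0 lower, the lowest count without 1 array was 7 (total replicate 1), and without polysomal replicate 1 it was 8.

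Of 31 rows for mitosis and DNA replication, 7 higher and 0 lower were called (median 0.39 against 0.08). The share called, 22.6%, was near the 20.5% of all rows in both directions, of which 9.86% were higher and 10.7% lower. The B-type cyclin CYCB1;3 (AT3G11520) had 4.94, 4.52 and 4.47 on the polysomal arrays and 2.85, 3.32 and 3.65 on the total arrays (change 1.37, SE 0.27, adjusted p = 0.00143). CDKB2;2 (AT1G20930), a cyclin-dependent kinase of the G2 to M step, had 4.13, 4.49 and 5.22 on the polysomal arrays and 3.10, 3.29 and 3.30 on the total arrays (change 1.38, SE 0.34, adjusted p = 0.00706). In both genes the groups do not overlap, and the total values lie near or below the array medians. SYP111 (AT1G08560), the cytokinesis syntaxin KNOLLE, rose by 0.85 (adjusted p = 0.0121) and the replicative helicase subunits MCM6 (AT5G44635) and MCM2 (AT1G44900) by 0.65 (adjusted p = 0.0256) and by 0.63 (adjusted p = 0.0417). For MCM6 the change was 0.67 (adjusted p = 0.0547) without polysomal replicate 3. CYCB1;1 (AT4G37490) rose by 1.05 (adjusted p = 0.0361), which was 1.12 (adjusted p = 0.0604) without polysomal replicate 3. The count was 4 without that array, 4 without polysomal replicate 2, 4 without total replicate 2 and 2 without total replicate 1, with 0 lower in each case. Of 8 histone H4 rows, 0 were called by limma, with 1 at an unadjusted p under 0.05 and a median of −0.22.

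Splicing regulators, many of which make several mRNA forms that differ in their fate, had 8 of 23 rows higher and 1 lower, 39.1% against 20.5% of all rows (median 0.16 against 0.08). The polypyrimidine tract binding protein gene PTB1 (AT3G01150) had 5.44, 5.57 and 5.41 on the polysomal arrays and 4.17, 4.45 and 4.96 on the total arrays (change 0.95, SE 0.23, adjusted p = 0.0063). SCL30A (AT3G13570), of the SR protein family, had 6.56, 6.82 and 6.71 on the polysomal arrays and 5.89, 5.64 and 6.03 on the total arrays (change 0.85, SE 0.20, adjusted p = 0.00569). Both lie higher on every polysomal than on any total array. RS31a (AT2G46610), another SR protein gene, was lower with 3.94, 4.35 and 4.04 on the polysomal arrays and 4.55, 5.04 and 5.81 on the total arrays (change −1.02, SE 0.30, adjusted p = 0.0209), and the change was −0.99 (adjusted p = 0.0591) without polysomal replicate 3. The count of higher rows was 4 without that array, 5 without polysomal replicate 2, total replicate 1 or total replicate 2, and 3 without total replicate 3.

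Genes whose mRNA carries a regulatory upstream open reading frame (uORF), a short frame ahead of the main one that can hold ribosomes back, gave few calls: 2 of 20 rows were higher and 1 lower, 15%, under the 20.5% of all rows (median 0.00 against 0.08). The auxin response factor gene ETT (AT2G33860), with several uORFs in its leader, had 5.95, 6.01 and 6.23 on the polysomal arrays and 4.41, 4.77 and 4.76 on the total arrays (change 1.42, SE 0.26, adjusted p = 0.000759). VTC2 (AT4G26850), a controlling enzyme of ascorbate synthesis, had 9.03, 9.10 and 9.19 on the polysomal arrays and 8.45, 8.52 and 8.35 on the total arrays (change 0.66, SE 0.17, adjusted p = 0.0104). The transcription factor gene bZIP2 (AT2G18160), of the family whose uORF responds to sucrose, was lower with 5.31, 5.57 and 5.51 on the polysomal arrays and 6.69, 6.55 and 6.63 on the total arrays (change −1.16, SE 0.24, adjusted p = 0.00199), and in each of these 3 genes the groups do not overlap. Its relatives bZIP44 (AT1G75390), GBF6 (AT4G34590) and BZIP53 (AT3G62420) had changes of −0.28, −0.64 and −0.25 and did not pass the test. In all, 12 of the 20 rows, bZIP2 among them, are identical on all arrays to the row of another locus. The list median was 0.26 without such rows, 0.11 with arrays centred on their medians and −0.12 without polysomal replicate 1, so it had no stable sign.

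Calls made up 16.7% of 12 Aux/IAA repressor rows, 18.8% of 16 clock rows and 50% of 6 auxin receptor rows. The share of all rows called was 20.5%. The auxin receptor gene TIR1 (AT3G62980), an F-box protein, had 7.88, 8.40 and 8.47 on the polysomal arrays and 6.61, 6.73 and 6.75 on the total arrays (change 1.56, SE 0.20, adjusted p = 2.08e-05), and in its family, listed after its value was seen, 3 of 6 rows were higher and 0 lower. The others were AFB2 (AT3G26810, change 0.66, adjusted p = 0.0368) and AFB5 (AT5G49980, change 0.56, adjusted p = 0.0493), at 0.72 (adjusted p = 0.0549) and 0.60 (adjusted p = 0.0754) without polysomal replicate 3. The family's count was 2 without polysomal replicate 1 or 3 and 1 without any other single array. Among the 12 Aux/IAA repressors that TIR1 targets, IAA14 (AT4G14550) was lower with 2.72, 1.62 and 2.15 on the polysomal arrays and 3.19, 3.39 and 3.83 on the total arrays (change −1.30, SE 0.28, adjusted p = 0.00289), all below or near the array medians, and IAA7 (AT3G23050) higher with 8.11, 7.88 and 7.92 on the polysomal arrays and 7.23, 7.61 and 7.32 on the total arrays (change 0.58, SE 0.19, adjusted p = 0.0363, with 0.61 at adjusted p = 0.0661 without polysomal replicate 3). Of 16 clock genes, 1 was called higher and 2 lower, while 13 changes were above 0. The clock median was 0.23, against 0.08 for all rows, and 0.25 without polysomal replicate 3. The evening gene ELF4 (AT2G40080) was lower with 7.07, 7.06 and 6.95 on the polysomal arrays and 7.87, 7.50 and 8.06 on the total arrays (change −0.79, SE 0.21, adjusted p = 0.0106). The morning factor CCA1 (AT2G46830) was lower (−0.89, adjusted p = 0.0192) and TCP11 (AT5G08330) higher (0.65, adjusted p = 0.0189), and without polysomal replicate 3 these were −0.70 (adjusted p = 0.0969) and 0.60 (adjusted p = 0.0652). The housekeeping genes ACT7 (AT5G09810) and UBQ10 (AT4G05320) were not called (0.08, adjusted p = 0.788, and 0.18, adjusted p = 0.568).

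The 10 largest falls by the naming rule were transcripts high in total RNA of seedlings and low in nearly every other group. Their high total and low polysomal values follow from the rule, and they reached the level of 6 through total RNA. Their changes lay between −4.85 and −6.48, and none has a symbol in the annotation. AT2G01023 had 2.70, 3.76 and 3.16 on the polysomal arrays and 9.75, 9.59 and 9.74 on the total arrays (change −6.48, SE 0.25, adjusted p = 3.22e-12), and its values on the 15 arrays of the other 5 groups, dry seed total RNA included, lay between 2.70 and 4.65. AT2G11778 had 1.46, 1.48 and 1.28 on the polysomal arrays and 7.39, 7.53 and 7.60 on the total arrays (change −6.10, SE 0.24, adjusted p = 3.22e-12), with 1.06 to 2.19 on the other 15 arrays. AT4G08370 had 1.24, 2.26 and 1.59 on the polysomal arrays and 7.89, 8.25 and 6.52 on the total arrays (change −5.86, SE 0.41, adjusted p = 7.34e-09). In these 3 genes the groups lie more than 4 log2 units apart. AT1G34910, AT4G09649, AT2G15185, AT1G26240 and AT5G03944 showed the same pattern with changes of −5.48, −5.43, −4.95, −4.89 and −4.85, and in each the lowest seedling total value exceeded every other array by at least 1.93. Exceptions were AT3G50250 (−6.11), which reached 7.65 in monosomal RNA of seedlings, and AT4G18690 (−5.19), which reached 6.64 in dry seeds.

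This pattern was also counted among the deepest falls. These rows were chosen for a seedling total above the polysomal level, so only the monosomal and dry seed groups lie outside that choice. The same counts were not made for all rows, so no background share can be set beside them. Of the 344 rows that fell at least 4-fold, seedling total RNA was the highest of the 6 groups in 323 and lay at least 4-fold above every other group in 179. In 267 the polysomal mean was below the lowest polysomal array median, toward the low end of the scale. Annotated protein-coding genes made up 244 of the 344 and mitochondria-encoded rows 36. Without polysomal replicate 3, 325 of them remained at least 4-fold lower. Counted in loci, 2 of the named falls lay near ribosomal RNA genes. Other rows near such genes were not counted, and whether the position bears on the falls was not tested. In the annotation 3 loci lie between AT2G01023 and the ribosomal RNA gene AT2G01020, and 3 loci between AT3G41762 (−2.21, adjusted p = 0.00013) and the ribosomal RNA gene AT3G41768.

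**Figure D4:**
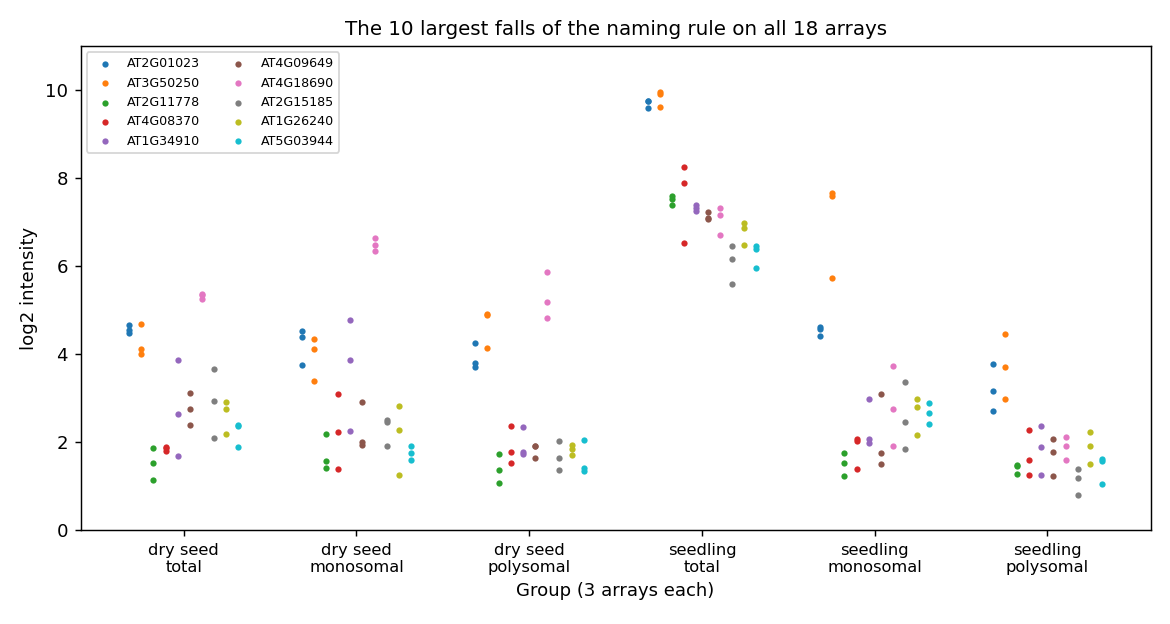
Log2 intensity of the 10 largest falls by the naming rule on all 18 arrays, 3 points per gene and group, coloured by gene. Seedling total values lie between 5.60 and 9.96, while on seedling polysomal arrays none of the 10 exceeds 4.45; AT3G50250 is also high in monosomal RNA and AT4G18690 in dry seeds.

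Most rows encoded in the mitochondrion were lower in polysomal than in total RNA. Of 92 rows with mitochondrial locus numbers, 1 was called higher and 62 lower, 68.5% against 20.5% of all rows, with a median change of −1.52 against 0.08 (−1.40 without polysomal replicate 3, which left 57 lower). The deepest was ATMG00820, with 4.55, 4.46 and 3.47 on the polysomal arrays and 8.62, 9.07 and 8.91 on the total arrays (change −4.70, SE 0.31, adjusted p = 3.16e-09). ATMG01250 fell by 4.60 (adjusted p = 6.1e-09) and ATMG00800 by 4.41 (adjusted p = 6.5e-09). Changes were uneven: ATMG01200, at 11.31, 11.02 and 11.14 on the polysomal arrays and 11.18, 11.19 and 10.90 on the total arrays, was not called (0.07, adjusted p = 0.815), and ATMG01000 was higher with 9.08, 8.90 and 8.86 on the polysomal arrays and 7.63, 7.78 and 7.31 on the total arrays (change 1.38, SE 0.19, adjusted p = 4.12e-05). Seedling monosomal RNA, which shares the total arrays, gave 62 lower and 4 higher (median −1.56) where 14.5% of all rows were lower and 17.2% higher. In dry seeds the median of polysomal minus total was −0.06, and the difference between stages passed its own test in 55 of 92 rows, against 9% of all rows. No gene names are given for these loci, since the annotation used here does not list them.

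Chromosome 2 of Col-0 carries a large insertion of mitochondrial DNA, and 33 of the 92 mitochondrial rows were identical on all arrays to a chromosome 2 row, so their locus is uncertain. The 100 rows from AT2G07660 to AT2G07849, a range chosen after seeing values, gave 2 higher and 64 lower, 66% against 20.5% of all rows, with a median of −1.19. Leaving out polysomal replicate 3 gave 1 higher and 59 lower, with a median of −0.97. Without any row identical to another, the mitochondrial median was −1.04. Of the 10 largest falls with both group means at least 6, 5 were of this range, among them AT2G07722 with 6.66, 6.67 and 5.88 on the polysomal arrays and 9.99, 10.14 and 9.74 on the total arrays (change −3.55, SE 0.22, adjusted p = 1.68e-09) and AT2G07669 (−2.76, adjusted p = 8e-08).

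Of 15 chloroplast-encoded rows, 0 higher and 5 lower were called, 33.3% against 20.5% of all rows (median −0.26 against 0.08). Of the 15 rows 12 are identical to the row of another locus, and of the other 3 rows 1 was lower. ATCG00230 had 6.53, 6.19 and 6.13 on the polysomal arrays and 7.93, 7.94 and 7.53 on the total arrays (change −1.52, SE 0.21, adjusted p = 3.8e-05). ATCG00160 had 9.37, 8.94 and 9.08 on the polysomal arrays and 10.79, 10.77 and 10.32 on the total arrays (change −1.50, SE 0.24, adjusted p = 0.000215). The third, ATCG00610, had 9.10, 8.66 and 8.77 on the polysomal arrays and 9.69, 9.67 and 9.28 on the total arrays (change −0.70, SE 0.23, adjusted p = 0.0334) and was −0.66 (adjusted p = 0.0893) without polysomal replicate 3. ATMG00930 and AT2G07748 have the same values as ATCG00610, so 1 signal is counted as chloroplast, mitochondrial and chromosome 2. The row of ATCG00160 is also identical to that of another locus. The other 2 calls are ATCG00990 and ATCG01140, whose rows are identical. ATCG00020, by contrast, whose row is identical to that of AT2G07688 on chromosome 2, had 12.14, 11.94 and 12.17 on the polysomal arrays and 12.27, 12.14 and 11.93 on the total arrays (−0.03, adjusted p = 0.926). The count of lower rows was 4 without polysomal replicate 3, 2 without polysomal replicate 2 and 2 without total replicate 1.

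Cell wall and cell surface proteins, a class made on membrane-bound ribosomes, were among the genes lower in polysomal RNA. Of 4012 rows with both group means of at least 6, 703 were higher and 361 lower, a requirement added after seeing the data. In lists drawn from annotation symbols after values had been seen, 23 of 49 arabinogalactan and fasciclin-like protein genes were lower and 0 higher, 46.9% against 10.7% lower among all rows (median −0.65 against 0.08). Likewise 8 of 15 extensin and COBRA family genes (53.3%) and 4 of 10 rows with a pectin methylesterase symbol (40%) were lower, again with 0 higher. Having been picked with the values known, these lists do not bear independently on the direction. FLA8 (AT2G45470), a fasciclin-like arabinogalactan protein anchored at the cell surface, had 7.59, 7.85 and 7.39 on the polysomal arrays and 9.22, 9.0 and 9.14 on the total arrays (change −1.51, SE 0.25, adjusted p = 0.00028). In this gene, as in the others below, every polysomal value lies below every total value. COB (AT5G60920), a cell surface protein that orients cellulose deposition, had 6.60, 6.92 and 6.50 on the polysomal arrays and 8.11, 7.81 and 7.86 on the total arrays (change −1.25, SE 0.17, adjusted p = 4.21e-05). AGP31 (AT1G28290) had 8.10, 8.14 and 8.04 on the polysomal arrays and 9.65, 9.35 and 9.36 on the total arrays (change −1.36, SE 0.29, adjusted p = 0.00276). The pectin methylesterase gene PME3 (AT3G14310) had 6.76, 6.31 and 6.06 on the polysomal arrays and 7.83, 7.65 and 7.79 on the total arrays (change −1.38, SE 0.30, adjusted p = 0.00265). The counts without polysomal replicate 3 were 17, 7 and 4, and without polysomal replicate 1 the extensin and COBRA count was 4. Of the pectin methylesterase symbols, PME1 at AT4G12390 belongs by its annotated synonym to an inhibitor of that enzyme (−1.71, adjusted p = 4e-04).

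Folding factors of the ER, which receives these proteins, showed the same direction. Of 18 chaperone, calreticulin and protein disulfide isomerase genes, listed after values were seen, 8 were lower and 0 higher, 44.4% called against 20.5%, and every change was below 0 (median −0.70 against 0.08). Leaving out polysomal replicate 3 gave 7 lower and 0 higher, with a median of −0.70. CRT1b (AT1G09210), a calreticulin, had 5.97, 6.16 and 5.55 on the polysomal arrays and 7.14, 7.38 and 7.29 on the total arrays (change −1.38, SE 0.22, adjusted p = 0.000166). UNE5 (AT2G47470), a protein disulfide isomerase, had 6.51, 6.59 and 6.34 on the polysomal arrays and 7.72, 7.60 and 7.45 on the total arrays (change −1.11, SE 0.20, adjusted p = 0.000628). Calnexin CNX1 (AT5G61790) had 6.26, 6.50 and 6.33 on the polysomal arrays and 7.53, 7.33 and 7.27 on the total arrays (change −1.01, SE 0.20, adjusted p = 0.00114). The groups of these 3 genes do not overlap. SHD (AT4G24190), the ER form of HSP90, had 7.50, 7.56 and 7.36 on the polysomal arrays and 8.01, 7.76 and 7.72 on the total arrays and did not pass the test (−0.36, adjusted p = 0.312). In dry seeds the list's median of polysomal minus total was 0.09, and the difference between stages passed in 5 of 18 rows. Wall growth genes gave few calls: of 20 expansins and primary-wall cellulose synthases, EXPA6 (AT2G28950, change −0.96, SE 0.20, adjusted p = 0.00201) and EXPA2 (AT5G05290, change −1.03, SE 0.30, adjusted p = 0.0188) were lower and 0 higher. EXPA2 was −0.74 (adjusted p = 0.109) without polysomal replicate 3.

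Further genes were named by a rule added after the values were seen, the 10 largest rises and falls with both means at least 6. Among the falls were AT3G54580 with 6.73, 6.59 and 6.71 on the polysomal arrays and 8.69, 8.69 and 8.95 on the total arrays (change −2.10, SE 0.21, adjusted p = 7.92e-07) and C/VIF2 (AT5G64620), an inhibitor of invertase, with 6.49, 6.23 and 6.19 on the polysomal arrays and 7.95, 7.79 and 7.71 on the total arrays (change −1.51, SE 0.23, adjusted p = 0.000119). AT3G21690 and AT1G03230 fell by 1.71 and 1.58 (adjusted p = 5.09e-07 and 2.87e-06). On the rising side the same rule named TIR1, SBP1, GSH2, PKT3 and AT1G80360, given above, with EMB2799 (AT2G39080), which rose by 1.47 (adjusted p = 0.000148). AT3G50520, AT3G08640, AT2G34590 and AT1G16700 rose by 1.57, 1.58, 1.46 and 1.43.

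**Figure D5:**
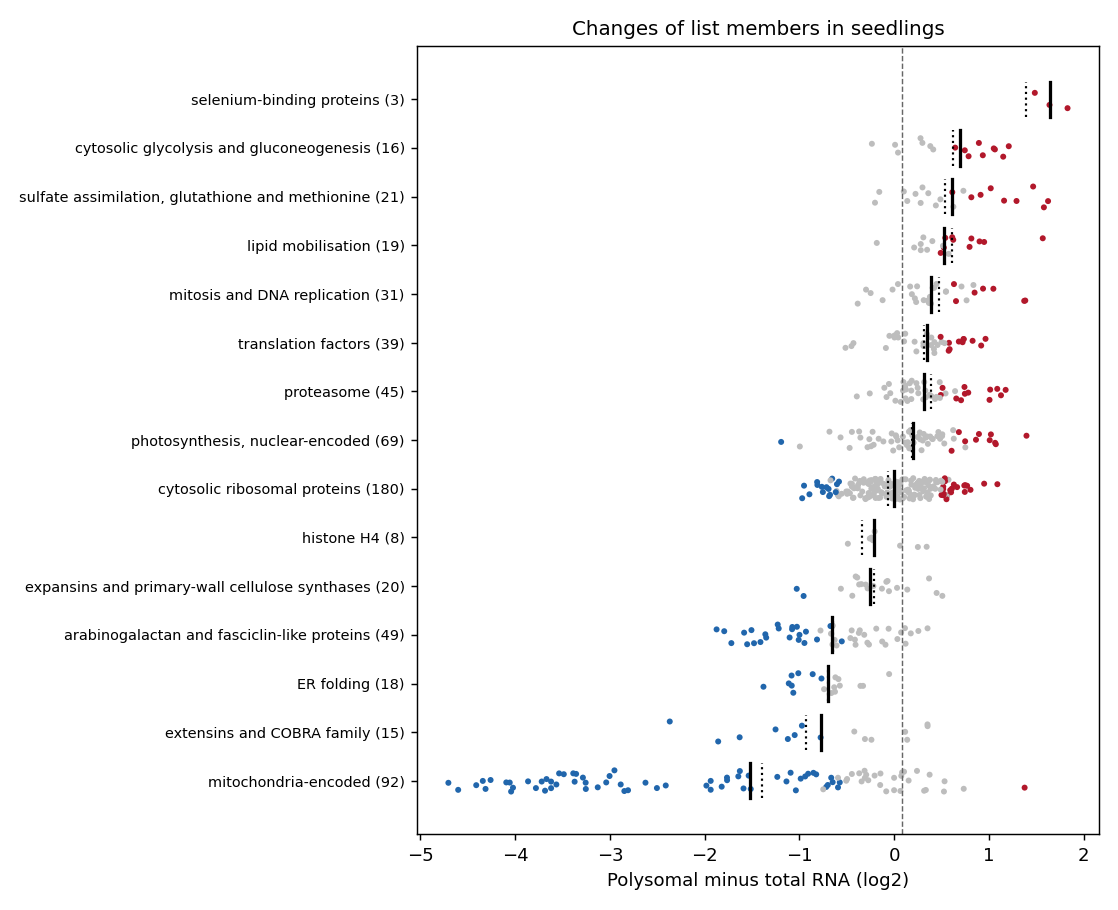
Polysomal minus total RNA (log2) of each member of 15 gene lists, with the number of rows in parentheses; red points were called higher, blue lower and grey not called, solid bars are list medians, dotted bars medians without polysomal replicate 3, and the dashed line is the median of all rows (0.08). Medians run from 1.64 for selenium-binding proteins to −1.52 for mitochondria-encoded rows.

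Other gene types of the annotation are set beside the 10.7% of all rows that were lower and the 9.86% that were higher. Small nucleolar RNA genes, whose products guide modification of ribosomal RNA in the nucleus, had 16 of 68 rows lower (23.5%) and 2 higher (median −0.55, and −0.64 without polysomal replicate 3). Rows of the type ncRNA, other non-coding RNA, had 32 of 165 lower (19.4%) and 7 higher, with a median of −0.02. Transfer RNA genes had 14 of 61 lower and 3 higher, but 10 of the 14 lie in the range AT2G07660 to AT2G07849 described above. Outside that range 4 of 48 were lower and 3 higher, and the median was 0.14. Pseudogenes had 11 of 17 lower and 0 higher, 7 of the 11 in the same range, which left 4 of 9 lower outside it (median −0.18). Of 32 transcribed pseudogenes 15 were lower and 0 higher, 13 of the 15 in that range, which left 2 of 11 lower outside it. The tRNA and pseudogene falls thus repeat, in large part, those given for that range. Long non-coding RNA genes had 22 of 222 lower (9.9%) and 14 higher, with a median of 0.03. Of rows that are not nuclear protein-coding genes, the naming rule gave AT4G08967 with 1.78, 1.24 and 1.67 on the polysomal arrays and 6.91, 6.93 and 6.99 on the total arrays (change −5.38, SE 0.24, adjusted p = 3e-11), ATMG00820, ATMG01250 and ATMG00740 (−4.31, adjusted p = 3.98e-09) as falls. As rises it gave ATMG01000, AT1G28730 (1.26, adjusted p = 0.00414), AT3G52605 (1.25, adjusted p = 0.000809) and AT3G51238 (1.04, adjusted p = 0.00331).

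Seed proteins depended on polysomal replicate 3. Of 9 storage protein rows, 0 were called by limma (2 at an unadjusted p under 0.05) with a median change of 0.82, and without that array the median was −0.33, with 0 higher and 1 lower. The cruciferin gene CRU2 (AT1G03880) had 1.37, 2.39 and 6.49 on the polysomal arrays and 1.95, 2.30 and 2.10 on the total arrays (change 1.30, SE 0.76, adjusted p = 0.24), and −0.24 (adjusted p = 0.67) without replicate 3. Another cruciferin, CRA1 (AT5G44120), had 4.49, 4.13 and 7.57 on the polysomal arrays and 3.64, 3.24 and 3.71 on the total arrays (change 1.86, SE 0.74, adjusted p = 0.0816). In LEA genes, which protect drying cells, the median turned from 0.57 to −0.23, and the calls from 0 higher and 3 lower of 24 to 0 higher and 8 lower. AT5G44310 had 2.48, 2.57 and 4.95 on the polysomal arrays and 4.62, 5.18 and 4.70 on the total arrays (−1.50, adjusted p = 0.0484, with −2.30 at adjusted p = 0.00124 without replicate 3), and AT1G72100 had 2.22, 2.20 and 4.06 on the polysomal arrays and 3.52, 4.10 and 4.01 on the total arrays (−1.05, adjusted p = 0.0482, with −1.67 at adjusted p = 0.000358 without it). In both, the value on polysomal replicate 3 lies within the range of the total values. Leaving out polysomal replicate 1 or 2 instead gave 2 and 3 higher storage protein rows and 3 and 4 higher LEA rows. AT5G27980 was lower on all 3 polysomal arrays, at 1.56, 1.27 and 1.08 against 2.66, 2.75 and 2.84 (change −1.45, SE 0.22, adjusted p = 0.00014), below the array medians.

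Oil body rows gave 1 call of 7, AT1G05510, named OBAP1a in the annotation, with 2.89, 2.60 and 6.15 on the polysomal arrays and 2.12, 1.55 and 1.64 on the total arrays (change 2.11, SE 0.55, adjusted p = 0.01) and 0.98 (adjusted p = 0.00363) without replicate 3. Its value on replicate 3 stands far above those on the other polysomal arrays. Of 16 heat shock rows, the chaperone gene HSP90.1 (AT5G52640) was higher with 4.93, 4.59 and 5.84 on the polysomal arrays and 3.78, 4.05 and 3.52 on the total arrays (change 1.34, SE 0.29, adjusted p = 0.00315), whereas the small heat shock protein genes HSP17.6II (AT5G12020) and AT2G29500 were lower (−2.03, adjusted p = 0.0116, and −0.82, adjusted p = 0.0123). Without replicate 3, 5 were lower and 1 higher, and without replicate 2, 0 and 3. Seed coat, endosperm and maturation markers had 1 of 7 called: EPR1 (AT2G27380), an extensin-like gene of the endosperm, had 3.56, 4.20 and 5.55 on the polysomal arrays and 6.43, 6.59 and 7.01 on the total arrays (change −2.23, SE 0.33, adjusted p = 8.95e-05), and −2.79 (adjusted p = 2.78e-07) without replicate 3. Its polysomal values all lie below its total values.

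Polysomal RNA was also set against monosomal RNA of seedlings, a comparison that uses the same polysomal arrays. Of all rows 10.9% were higher and 8.17% lower, and without polysomal replicate 3, 9.05% and 5.97%. Mitosis and replication genes had 16 of 31 higher and 0 lower (median 1.07), which became 15 and 0 without replicate 3. CYCB1;3, for example, was at a mean of 4.65 in polysomal and 3.22 in monosomal RNA (change 1.43, adjusted p = 0.00153). Ribosomal protein rows went the other way, with 50 of 180 lower and 1 higher (median −0.32), and 46 and 0 without replicate 3. RS27A had means of 7.35 and 8.66 (change −1.32, adjusted p = 0.000322). Arabinogalactan and fasciclin-like genes had 25 of 49 lower and 0 higher, and 19 and 0 without replicate 3. ER folding genes had 3 of 18 lower and 3 higher, and 0 and 3 without it. For ER folding the level set against total RNA was low in monosomal RNA too, with 10 of 18 lower. Translation factors had 8 of 39 higher and 1 lower, and 9 and 1 without replicate 3. Lipid mobilisation had 6 of 19 higher and 0 lower in both fits. Single-ribosome and several-ribosome fractions of mitochondria-encoded rows gave 8 higher, 7 lower and a median of 0.03. Without replicate 3 they gave 11 higher, 1 lower and a median of 0.07, so the even split depended on that array.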

How the data were processed

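Microarray signal was measured on 18 arrays, 3 for each of 6 groups, and samples were grouped by their titles. The deposited values are log2 intensities made with RMA, per the submitters' processing notes, a method that corrects background, normalizes arrays to one another and combines probes. The array type and the grouping of probes into loci are not given in the sources used here. Equal scaling of arrays means that only shares of a fraction can be compared. Labelling used biotin and a kit that starts from the 3′ end, per the labels' protocols.

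All 27827 rows were used unfiltered. Group means of all 18 arrays were fitted with limma 3.58.1 in R 4.3.3 (lmFit and eBayes), and p-values were adjusted over all rows by Benjamini-Hochberg, with calls at an adjusted p under 0.05. The contrast was fitted again without seedling polysomal replicate 3. Simulated data had 27827 rows, of which 27627 were left unchanged. There 95.5% of rows changed by 2 log2 units, 46.3% of those changed by 1 and 1.49% of those changed by 0.5 were called. Adjusted p-values depend on the share of changed rows, and in the real data 20.5% of rows were called. The simulated shares therefore do not give the sensitivity of the real comparison. The 3 arrays a group limit the precision. Each p-value sets a difference between groups against the spread within groups, estimated over all arrays of the fit, dry seeds included.

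The arrays compared and the gene lists were chosen with earlier results of these data known, and 10 lists were added after the values were seen. Genes were named by rule: the 10 largest rises and falls among nuclear protein-coding rows and the 4 among other rows, called with and without polysomal replicate 3, not overlapping, with a group mean of at least 6 and values not shared with another row. From each list the called genes with the largest changes, at most 3, were added, with 8 reference genes and, after values were seen, the 10 largest rises and falls with both means at least 6. Any further list member named was chosen after its value was seen. Symbols come from RefSeq, matched by locus. Alternatives were other scalings, a filter on low rows, other variance models, subsets of arrays, leaving out each array and the replicate number as a block.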

Additional observations from a re-analysis of the deposited data

Results flagged for a closer look

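Polysomal minus total RNA was compared between seedlings and dry seeds by the interaction term of the limma fit, seedling minus dry seed on the log2 scale. Of all rows 1380 were more negative and 1124 more positive in seedlings at an adjusted p under 0.05. Of 98 named genes, 53 differed and are listed here. Among the deepest falls the difference was −6.50 for AT3G50250, −5.97 for AT2G11778, −5.90 for AT4G08370, −5.83 for AT2G01023, −5.16 for AT4G18690, −4.80 for AT4G08967, −4.69 for AT1G34910, −4.50 for AT4G09649, −4.24 for AT5G03944, −4.10 for AT1G26240 and −3.74 for AT2G15185. For these 11, in dry seeds, polysomal minus total lay between −1.22 and 0.39. Among organelle-encoded rows and the chromosome 2 range it was −4.93 for ATMG01250, −4.42 for ATMG00740, −4.34 for ATMG00800, −4.25 for ATMG00820, −3.16 for AT2G07669, −3.12 for AT2G07722, −2.30 for ATCG00160, −1.93 for AT2G07787, −1.78 for AT2G07724 and −1.62 for AT2G07684. Their dry seed changes lay between −0.45 and 0.81.

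Of the other named genes, those more negative in seedlings had differences of −1.84 for AT3G54580, −1.59 for EPR1 (AT2G27380), −1.56 for RS31a (AT2G46610), −1.43 for AT3G21690, −1.35 for IAA14 (AT4G14550), −1.29 for C/VIF2 (AT5G64620), −1.12 for AT2G25210, −1.11 for EXPA6 (AT2G28950) and −1.08 for AT1G03230. Those more positive in seedlings had 1.02 for AT2G18270, 1.04 for GAPB (AT1G42970), 1.06 for AT3G57490, 1.15 for RPN10 (AT4G38630), 1.16 for PKT3 (AT2G33150), 1.17 for AT5G19510, 1.18 for AT2G34590, 1.24 for IAA7 (AT3G23050), 1.24 for AT5G67630, 1.30 for PAB1 (AT1G16470), 1.32 for AT3G08640, 1.39 for FBA1 (AT2G21330), 1.44 for PAE1 (AT1G53850), 1.47 for AT3G50520, 1.50 for SBP2 (AT4G14040), 1.55 for EMB2799 (AT2G39080), 1.69 for SBP1 (AT4G14030), 1.71 for CYCB1;3 (AT3G11520), 1.72 for AT1G03030, 1.75 for AT1G16700, 1.76 for CDKB2;2 (AT1G20930), 2.05 for AT5G64460 and 2.19 for RABA1d (AT4G18800). Adjusted p-values over these 53 genes ran from 5.7e-09 to 0.0436. Most of the named genes were chosen for their change in seedlings, so a large seedling term is built into these differences, and the seedling values include polysomal replicate 3. With 3 arrays a group, no group had enough arrays for a check of single outlying values.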

How the results depend on the processing

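Counts of called rows depended on the stringency. At an adjusted p under 0.01 they were 1212 higher and 1746 lower, and with a change of at least 2-fold 729 and 1679. With both group means at least 6, a requirement added after seeing the data, they were 703 and 361. Leaving out 1 array gave 1739 to 2083 higher and 2284 to 2473 lower rows, the lowest higher counts being 1739 without seedling total replicate 1 and 1806 without seedling total replicate 2. Arrays centred on medians gave 4056 and 2421, on 75th percentiles 2076 and 3327, and cyclic loess 2574 and 3086. Other variance models, array subsets and a filter of the lowest 25% of rows gave 2146 to 3510 higher and 2497 to 3517 lower rows, within 1.5 times the reported counts.

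Same-numbered polysomal and total arrays deviated together only weakly (correlation 0.08, 0.07 and 0.05 for replicates 1 to 3), each correlating best with its own number. With the replicate number as a block 2684 rows were higher and 2971 lower, of which 2573 and 2853 were also called without it.

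Single genes were recomputed under the alternatives for the 98 named by the rules, and the other genes in the text were not, apart from the fit without polysomal replicate 3. Of the 98, none that was called changed sign, and of those not called, ACT7 and RBCS1A crossed 0 after cyclic loess, ACT7 also without total replicate 1, and CRU2 went from 1.30 to −0.24 without polysomal replicate 3. Among the 98, calls of AT1G05510, AT1G72100, AT2G29500, AT5G44310, ATCG00610, CCA1, CRU2, CYCB1;1, ELF4, EXPA2, HSP17.6II, IAA7, ICL, RPS6, RS31a, TCP11 and WUS were lost or gained under at least 1 of them. Of 553 list medians recomputed, 17 moved by more than the spread between replicates, among them that of mitochondria-encoded rows (−1.04 without rows identical to another), of chloroplast-encoded rows (−0.70 over the 3 rows not identical to another, with 1 of them lower), of pseudogenes (−2.42 without polysomal replicate 3) and of microRNA genes (0.20, and −0.01 without the lowest 25% of rows). Classes by protein length were not run. Near the low end of the scale, where most deep falls end, signal over background was not given, which limits the size of those changes.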

Other observations

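Only 5 rows rose at least 4-fold, all with group means below the level of 6 that the naming rule required. SNC1 (AT4G16890), an immune receptor gene, had 4.79, 4.67 and 4.36 on the polysomal arrays and 3.0, 1.94 and 1.97 on the total arrays (change 2.31, SE 0.38, adjusted p = 0.000278), against a mean of 2.36 in monosomal RNA. Its polysomal values all lie above its total values. AT5G49560 had 4.16, 4.38 and 5.34 on the polysomal arrays and 2.31, 2.50 and 2.10 on the total arrays (change 2.32, SE 0.33, adjusted p = 5.08e-05). AT3G32030 had 3.40, 4.31 and 4.45 on the polysomal arrays and 2.17, 1.98 and 1.84 on the total arrays (change 2.06, SE 0.36, adjusted p = 0.000486). Neither overlaps, and in monosomal RNA their means were 5.11 and 3.33. The seed metallothionein gene AtMT4a (AT2G42000) had 2.99, 3.15 and 6.46 on the polysomal arrays and 1.32, 1.79 and 2.16 on the total arrays (change 2.44, SE 0.55, adjusted p = 0.00391). Like AT1G05510, described above, it is far higher on polysomal replicate 3 than on the others, and without that array its change was 1.31 (adjusted p = 0.000636). In dry seed total RNA its mean was 9.16.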
